A study of Homo sapiens with 30 samples.

Results

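The genes described here are 36 genes of protein folding in the endoplasmic reticulum (ER) and of the unfolded protein response, the program that cells switch on when unfolded protein builds up in the ER lumen. They were chosen by name, and each gene was read through its brightest single-symbol probe set. Of the 36 genes, 28 had a probe set, out of 12690 genes with one on the array, and 21 were bright enough to be tested among 7614 genes. No probe set with 1 symbol was found for HSP90B1, HYOU1, PDIA4, P4HB, PPIB, SYVN1, SEC61G or ERN1, and 7 other genes were measured but too dim to be tested (SDF2, DNAJB9, PDIA3, ERO1B, DERL1, DERL2 and EIF2AK3). The tested genes were 7 of 11 chaperones and co-chaperones, 2 of 7 oxidative folding genes, both lectin chaperones, 3 of 6 degradation genes, 4 of 5 translocation genes and 3 of 5 sensors and regulators.

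The samples were 30 RNA preparations from 3 human carcinoma lines in monolayer culture, each on 1 custom Affymetrix array, exposed to near-complete absence of oxygen in an anoxic incubator. RCC4, a renal carcinoma line, was VHL-null, or had wild-type VHL put back (VHL-restored), at 0, 1, 2, 4, 6 and 18 h of hypoxia and after 1 h or 4 h of reoxygenation that followed 18 h. HCT116, a colon carcinoma line, was p53-null or p53 wild type at 0, 12 and 24 h, and H1299, a non-small cell lung cancer line, was p53-null or had p53 put back at 0 and 24 h. RCC4 was repeated at 0 h and 18 h, with 2 arrays for each of those 4 groups, and there was 1 array for each of the rest. The labels do not say how VHL or p53 was put back, nor whether a genotype is a single clone, so other differences between the cells of 2 genotypes cannot be told apart from the genotype. Renal markers were above the median of the array for 1 to 3 of 4 measured genes in RCC4 and 0 to 1 in the other lines, whereas 2 of 8 colon genes in both HCT116 and H1299, and 2 to 3 of 5 lung genes in every line, were above it, so the colon and lung lists did not set their lines apart. Over all arrays 1 to 3 of 6 leukocyte, 4 of 6 endothelial and 1 to 3 of 6 fibroblast markers were above it.

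As background, proteins that enter the secretory pathway pass through the SEC61 channel and fold in the ER with the help of HSPA5 (BiP, an HSP70 chaperone), its DNAJ co-chaperones, disulfide isomerases that ERO1 oxidases recharge with the help of molecular oxygen, and the lectin chaperones calnexin and calreticulin, while misfolded proteins are pulled back out for degradation. Membrane sensors watch this process: ATF6 is cut to release a transcription factor, IRE1 (ERN1) splices XBP1 mRNA to make another, and PERK (EIF2AK3) slows translation and raises ATF4. ATF6 and spliced XBP1 bind ER stress elements in the promoters of chaperone genes, and PERK is known to be active in cells kept without oxygen. The probes' place in the transcript is not given in the sources used here, so spliced and unspliced XBP1 mRNA are read together.

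The ER stress element is shown first, because 12 of the 36 genes held it in 1 of the 2 forms below. It is known from promoters of chaperone genes, so its presence in this list is no result of these data. Promoter windows of 300 bases (250 before to 50 after the start, RefSeq, GRCh38.p14) were matched by symbol for 34 of the 36 genes, out of 35116 windows in all. The element ERSE (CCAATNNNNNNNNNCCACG, on either strand) lay in 27 of all windows (0.0769%) and in those of 9 of the 36 genes, and ERSE-II (ATTGG, any 1 base, then CCACG, on either strand) lay in 19 windows (0.0541%) and in those of 3 of the genes. A gene was counted if any of its windows matched, so counts of genes and percentages of windows are unlike units. The ERSE matches of tested genes follow, with 10 bases on each side and both ends of the element in capitals. All are written along the gene's own strand, so that CGTGG comes before ATTGG where the match is on the opposite strand.
HSPA5: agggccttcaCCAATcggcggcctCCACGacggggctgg
CRELD2: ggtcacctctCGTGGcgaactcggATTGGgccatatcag
PDIA6: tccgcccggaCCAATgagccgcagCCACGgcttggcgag
CALR: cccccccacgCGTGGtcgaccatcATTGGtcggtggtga
CANX: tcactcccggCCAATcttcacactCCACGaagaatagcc
SERP1: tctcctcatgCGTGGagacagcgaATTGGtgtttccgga
XBP1: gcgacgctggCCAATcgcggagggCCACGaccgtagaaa

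Their positions are HSPA5 at chr9:125241381-125241419 (minus strand), CRELD2 at chr22:49918544-49918582 (plus strand), PDIA6 at chr2:10812843-10812881 (minus strand), CALR at chr19:12938374-12938412 (plus strand), CANX at chr5:179698768-179698806 (plus strand), SERP1 at chr3:150546700-150546738 (minus strand) and XBP1 at chr22:28800593-28800631 (minus strand). The CANX match is 1 site seen from 3 annotated starts, 9, 151 and 189 bases before them. The matches begin 66 bases before the start in HSPA5, 52 in XBP1, 80 in CRELD2 and 86 in PDIA6, and lie farther away in CALR (225) and SERP1 (232). HSP90B1 (2 matches) and ERO1B also carried the element but could not be tested.

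The ERSE-II matches of tested genes are given in the same form.
HERPUD1: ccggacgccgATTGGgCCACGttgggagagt
SDF2L1: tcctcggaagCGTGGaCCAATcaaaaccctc

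They lie 117 bases before the start in HERPUD1 and 188 in SDF2L1, as HERPUD1 at chr16:56932015-56932045 (plus strand) and SDF2L1 at chr22:21642104-21642134 (plus strand). HYOU1, which had no probe set, held 2 matches. The whole HERPUD1 window is shown because HERPUD1 changed in both HCT116 and RCC4, with ERSE-II in capitals (chr16:56931892-56932191 on the plus strand).
HERPUD1: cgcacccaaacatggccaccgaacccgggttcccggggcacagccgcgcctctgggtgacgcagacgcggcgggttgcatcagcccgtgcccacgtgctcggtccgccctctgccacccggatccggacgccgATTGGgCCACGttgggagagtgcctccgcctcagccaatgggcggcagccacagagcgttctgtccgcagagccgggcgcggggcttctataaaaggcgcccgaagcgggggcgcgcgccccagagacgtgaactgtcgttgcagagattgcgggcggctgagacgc

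The DNAJC3 window is shown because it held neither ERSE nor ERSE-II nor the XBP1 element UPRE (TGACGTGG, either strand), although DNAJC3 was among the genes that rose most in HCT116 (chr13:95676889-95677188 on the plus strand).
DNAJC3: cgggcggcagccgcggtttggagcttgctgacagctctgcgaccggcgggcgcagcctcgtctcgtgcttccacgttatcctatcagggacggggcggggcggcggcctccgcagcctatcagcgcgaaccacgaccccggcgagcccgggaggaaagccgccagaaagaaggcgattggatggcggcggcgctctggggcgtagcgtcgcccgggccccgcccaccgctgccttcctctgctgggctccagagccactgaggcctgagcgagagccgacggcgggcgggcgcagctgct

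The ERO1A window is shown because ERO1A is a known hypoxia gene, and its single hypoxia response element core (ACGTG, either strand) is in capitals 114 bases before the start (chr14:52695509-52695808 on the minus strand).
ERO1A: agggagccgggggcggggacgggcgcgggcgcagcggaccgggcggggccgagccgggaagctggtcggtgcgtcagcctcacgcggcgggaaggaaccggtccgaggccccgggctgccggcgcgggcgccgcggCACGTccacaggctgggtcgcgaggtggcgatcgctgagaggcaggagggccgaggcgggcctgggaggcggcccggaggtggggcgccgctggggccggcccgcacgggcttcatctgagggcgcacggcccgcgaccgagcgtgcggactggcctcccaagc

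That core of 5 letters is common, in 7518 of all windows (21.4%) and in those of 19 of the 36 genes. UPRE, which contains the core, lay in 256 windows (0.729%) and in those of HYOU1, DNAJC10 and SEC62, and in HYOU1 it overlaps an ERSE-II match. A match is a run of letters and shows no binding.

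Some arrays stand apart, or have hypoxia genes that run against their labels, and this touches every result below. The 5 control entries that were blank on 18 arrays, here called set 1, had values on the remaining 12, called set 2. HCT116 and H1299 lie wholly in set 1, with the RCC4 samples labelled 2 h, 6 h and, for replicate 1, 0 h and 18 h, and the remaining RCC4 samples make up set 2. In H1299, hypoxia genes followed the label in p53-null cells but opposed it in the other genotype: ENO2, a glycolytic enolase, had an intensity of 243 at 24 h against 95 at 0 h on the arrays labelled p53-null, and 85 on the array labelled 24 h against 269 on the array labelled 0 h in p53 wild type. BNIP3, a mitophagy receptor, was 203 at 24 h and null at 0 h on the p53-null arrays, and 5 at 24 h against 200 at 0 h on the p53 wild-type arrays. CDKN1A, a p53 target, did not cross, at 259 against 105 and 329 against 138 in the same order. In VHL-restored RCC4, BNIP3 had 120, 516, 562 and 511 on the set 2 arrays labelled 0, 1, 4 and 18 h, and 34, 74, 186 and 310 on the set 1 arrays labelled 0, 2, 6 and 18 h, so the arrays labelled 1 h and 4 h stood level with 18 h. The VHL-null RCC4 array of replicate 2 at 0 h had the fewest null entries (18.4% of probe sets, against up to 40.4%) and the highest gene median. Results below that rest on the H1299 p53 wild-type arrays or on the RCC4 arrays labelled 1 h and 4 h are also given without them where a fit without them was run. VHL itself was dim throughout RCC4, with at most 109, and had 20 and 109 at 0 h in VHL-null cells against 26 and 40 in VHL-restored cells, so its level does not check the genotype labels. In HCT116, CDKN1A had 212, 236 and 227 at 0, 12 and 24 h in p53-null cells and 313, 336 and 229 in p53 wild-type cells.

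Tests used limma on log2(intensity + 16), centred on each array's median, with Benjamini-Hochberg adjustment over the 7614 genes and a threshold of 0.05, and every fold change is on that scale, which understates the change of dim genes. Because each array was centred, a change in RNA per cell cannot be seen, and fewer cells cannot be told apart from less RNA per cell. The labels call the RCC4 repeats replicates without saying that they come from separate cultures, so the p-values reflect no more than how far these samples scatter. Counts of members at an unadjusted p under 0.05 are given without the share of all genes at that p. Whether such counts exceed those of other genes is therefore not shown.

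The HCT116 arrays ask how a day without oxygen changes these genes in colon carcinoma cells. Chaperones, an oxidase, a lectin and a degradation gene rose at 12 h, and 9 of the 21 tested genes had risen at 24 h, with none lower. CRELD2, an ER chaperone with disulfide isomerase activity that is induced by ER stress, rose most. Its intensity was 85, 306 and 376 at 0, 12 and 24 h in p53-null cells, and 98, 453 and 503 in p53 wild-type cells. Both genotypes were thus higher at both hypoxic times than either was at 0 h, and the change at 24 h was 4.23-fold (log2 difference 2.08, SE 0.112, adjusted p = 0.00618). At 12 h it was 3.67-fold (adjusted p = 0.0109).

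**Figure D1:**
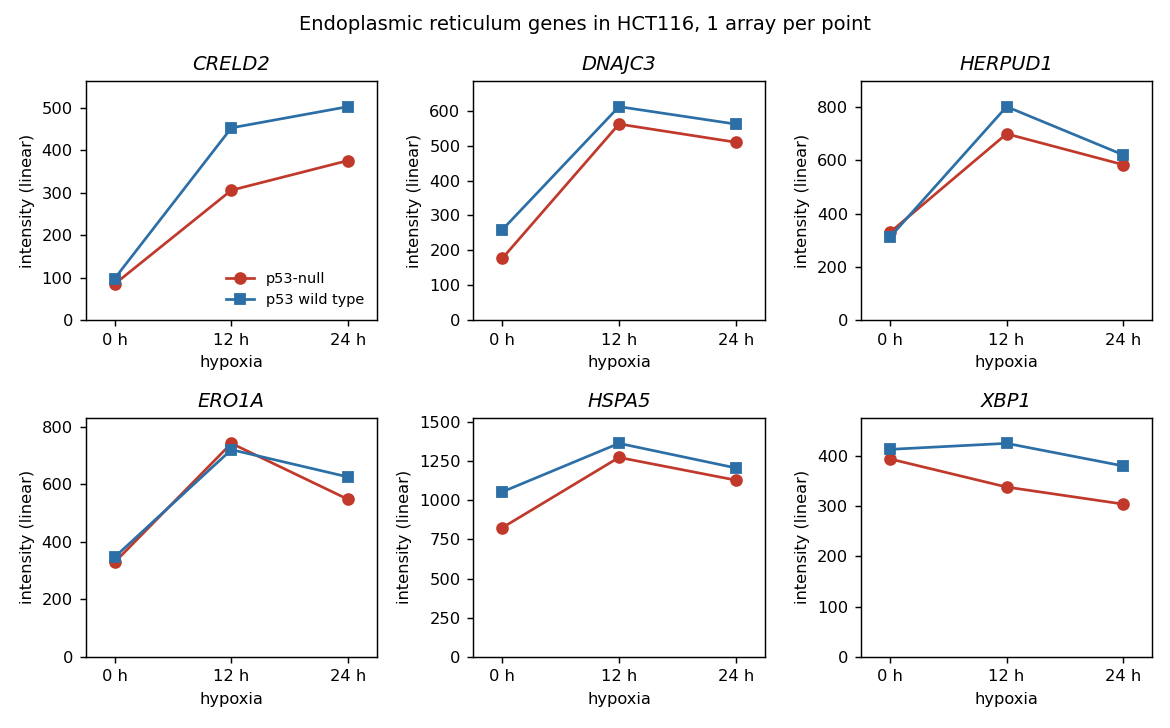
Intensity (linear scale) of 6 ER genes in HCT116 at 0, 12 and 24 h of hypoxia, with 1 array per point and 1 line per p53 genotype. CRELD2, DNAJC3, HERPUD1 and ERO1A were higher at 12 h and 24 h than at 0 h in both genotypes, while XBP1 was 304 and 380 at 24 h and 394 and 413 at 0 h.

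Among the HSP70 co-chaperones, DNAJC3 (p58IPK), which also restrains the kinase PERK, had 177, 562 and 510 in p53-null cells and 259, 612 and 562 in p53 wild-type cells at 0, 12 and 24 h. It was 2.41-fold higher at 24 h (log2 difference 1.27, SE 0.114, adjusted p = 0.0185), and another probe set of the gene moved the same way, by 1.21 in p53-null and 0.91 in p53 wild-type cells. DNAJB11, an HSPA5 co-chaperone, had 162, 391 and 338 in p53-null cells and 235, 469 and 405 in p53 wild-type cells, 1.84-fold higher at 24 h (adjusted p = 0.0216). MANF, a secreted ER-resident protein that binds HSPA5, had 637, 1134 and 1221 against 763, 1245 and 1157 in the same order, and rose 1.70-fold at 24 h (adjusted p = 0.0301), with an adjusted p of 0.0564 at 12 h. For each of these co-chaperones the hypoxic arrays lay above both 0 h arrays. HSPA5 itself, the chaperone they serve, started high, at 825 and 1054, and had 1129 and 1207 at 24 h, a log2 difference of 0.33 that did not pass (adjusted p = 0.125). SDF2L1, a component of the HSPA5 complex, had 232 and 301 at 24 h and 152 and 141 at 0 h, and its log2 difference of 0.80 did not pass either (adjusted p = 0.0777). DNAJC10, a co-chaperone and disulfide reductase, had a log2 difference of 0.51 (adjusted p = 0.195).

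In oxidative folding, PDIA6, a disulfide isomerase, had 337, 638 and 720 in p53-null cells and 436, 641 and 770 in p53 wild-type cells at 0, 12 and 24 h, and rose 1.92-fold at 24 h (adjusted p = 0.0263). ERO1A, the oxidase that recharges disulfide isomerases, had 329, 743 and 548 in p53-null cells and 347, 721 and 626 in p53 wild-type cells. It rose 2.14-fold at 12 h (adjusted p = 0.0174) and 1.71-fold at 24 h (adjusted p = 0.0284), and both genotypes were highest at 12 h. Its 2 other probe sets showed larger differences at 24 h, of 1.81 and 2.05 on the log2 scale in p53-null cells and 1.80 and 2.29 in p53 wild-type cells, against 0.70 and 0.85 for the one tested. The lectin chaperone CALR (calreticulin) was among the brightest genes and rose 1.51-fold at 24 h over both genotypes (adjusted p = 0.0296). It had 1266 at 24 h against 883 at 0 h in p53 wild-type cells. In p53-null cells it had 1281 at 12 h, a different time, against 816 at 0 h. Over all HCT116 times the genotypes differed by -0.045 (p53-null minus p53 wild type, SE 0.058, log2 scale). CANX (calnexin), its membrane-bound partner, had 833 and 847 at 24 h and 504 and 669 at 0 h, and did not pass (adjusted p = 0.0914).

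HERPUD1, which organises the ubiquitin ligase complex of ER-associated degradation, was the one degradation gene that rose. It had 329, 699 and 583 in p53-null cells and 311, 801 and 620 in p53 wild-type cells at 0, 12 and 24 h, 2.31-fold higher at 12 h (adjusted p = 0.0174) and 1.85-fold at 24 h (adjusted p = 0.026). SEL1L, a subunit of that ligase, and EDEM1, which trims mannose from misfolded glycoproteins, had log2 differences of 0.10 and 0.31 at 24 h and did not pass. Of the translocation genes, SERP1 (RAMP4), which stabilises membrane proteins at the channel, had 477, 790 and 935 in p53-null cells and 652, 932 and 1000 in p53 wild-type cells, and rose 1.72-fold at 24 h (adjusted p = 0.0298). Its other 2 probe sets differed by 0.26 and 0.73 in p53-null cells and by 0.29 and 0.44 in p53 wild-type cells, so the size of this change depends on the probe set. The channel subunit SEC61B was flat, with 718 and 654 at 24 h and 707 and 727 at 0 h.

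The sensors did not pass in HCT116. ATF6 had 443 and 474 at 24 h and 408 and 433 at 0 h (adjusted p = 0.349). XBP1, a target of ATF6 as well as the substrate of IRE1, had 304 and 380 at 24 h and 394 and 413 at 0 h, a log2 difference of -0.23 (adjusted p = 0.26), on arrays where CRELD2 and DNAJC3 were raised. WFS1, an ER membrane protein that restrains ATF6, had 108 and 136 at 24 h and 107 and 101 at 0 h (adjusted p = 0.431).

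In all, 6 members passed at 12 h, where 0.578% of tested genes were called higher, and 9 passed at 24 h, where 2.02% were, with 0 members lower at either time (0.158% and 1.79% of genes called lower). The median log2 difference of the 21 members was 0.63 at 12 h and 0.53 at 24 h, and that of all tested genes 0.04 and 0.03. Both times share the 0 h arrays, and the 2 genotypes serve as the replicates, so the test measures how far the genotypes agree. With all genes tested, dim ones included, 0 of 28 members and no other gene passed limma's test at either time. The smallest adjusted p of a member was 0.0977 at 12 h and 0.0661 at 24 h. In that fit 16 and 14 members had an unadjusted p under 0.05, with no share of all genes to set beside them.

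**Figure D2:**
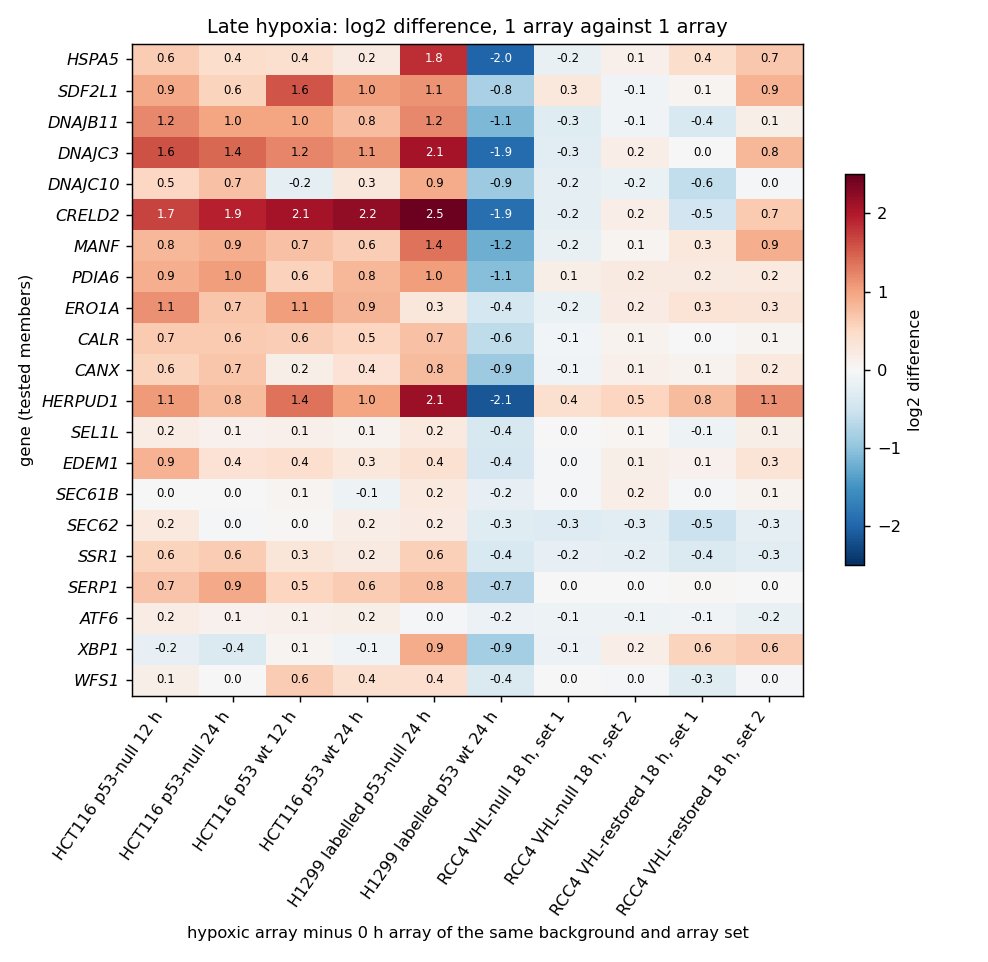
Log2 difference of each tested gene between 1 late hypoxic array and the 0 h array of the same background and array set, by column, with red for higher and blue for lower under hypoxia. CRELD2 differed by 1.95 and 2.22 at 24 h in HCT116, by 2.46 on the H1299 arrays labelled p53-null and by -1.89 on those labelled p53 wild type, and by -0.47 to 0.66 in RCC4 at 18 h.

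In H1299 most tested ER genes, like the hypoxia genes BNIP3 and ENO2, were higher at 24 h under the p53-null label. Under the p53 wild-type label they were lower at 24 h. HSPA5 had 1186 at 24 h against 322 at 0 h on the arrays labelled p53-null, and 288 at 24 h against 1190 at 0 h on those labelled p53 wild type. HERPUD1 had 451 against 91 in the first pair and 94 against 464 in the second. DNAJC3 had 350 against 72, and then 75 against 326. For each of the 3 genes, the 2 high arrays were those on which BNIP3 and ENO2 were also high, and the 2 low arrays those on which they were low. CRELD2 (337 against 49, then 87 against 365) and MANF (1001 against 387, then 388 against 926) showed the same crossing. Of the 21 tested members, 20 were higher at 24 h on the arrays labelled p53-null, and 0 were on those labelled p53 wild type. For comparison, 56.2% and 50.9% of all tested genes were higher in the 2 pairs. In all, 7 members (HSPA5, DNAJB11, DNAJC3, CRELD2, MANF, PDIA6 and HERPUD1) differed by at least 1 on the log2 scale upward in the first pair and downward in the second. ATF6 was flat in both, at 388 against 401 and 402 against 448. With 1 array per state of each genotype, the crossing itself cannot be tested within H1299, and a shared time effect was not fitted in that line alone.

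**Figure D3:**
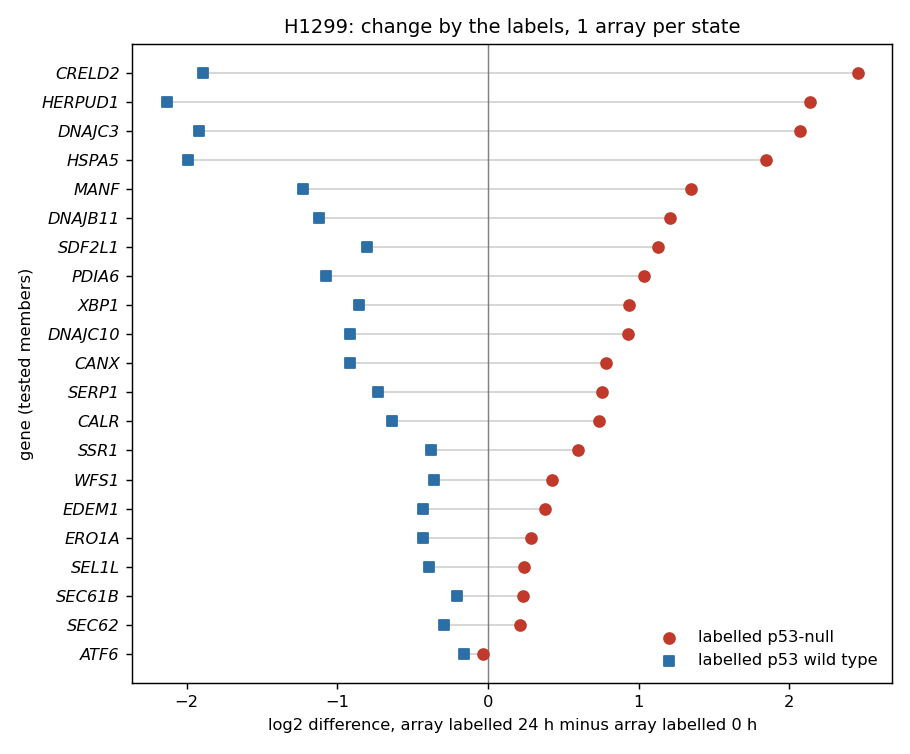
Log2 difference of each tested gene between the H1299 array labelled 24 h and that labelled 0 h, with circles for the p53-null label and squares for the p53 wild-type label, 1 array per state. All genes but ATF6 lie to the right of 0 for p53-null (0.21 to 2.46) and all 21 lie to the left for p53 wild type (-0.16 to -2.13).

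Over HCT116 and H1299 together, with 4 backgrounds as replicates, 0 of 21 members passed at 24 h (0.0% of all genes in either direction, and 0 members at an unadjusted p under 0.05). CRELD2 (log2 difference 1.18, adjusted p = 0.653), DNAJC3 (0.67) and SDF2L1 (0.48) differed most. Without the pair of arrays labelled H1299 p53 wild type, CRELD2 passed, with a log2 difference of 2.21 (4.62-fold, SE 0.115, adjusted p = 0.0385), where 0.0657% of genes were called higher, and 14 members had an unadjusted p under 0.05. Over all 6 backgrounds, RCC4 at 18 h included, 0 members passed as labelled, without that pair, or without H1299. Almost no gene passed in these fits. As labelled and without H1299, 0.0% of all tested genes were called in either direction. Without that pair 0.0% were called higher and 0.0657% lower. As labelled, without that pair and without H1299, 0, 11 and 9 members had an unadjusted p under 0.05 in limma. The median over members was 0.19 as labelled and 0.31 without H1299.

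For p53, which asks whether the tumour suppressor alters these genes, 0 members passed over the 5 line and time pairs (0.0% of genes called, and 0 members at an unadjusted p under 0.05). CRELD2 (-0.38, p53-null minus p53 wild type), SERP1 (-0.21) and DNAJB11 (-0.21) differed most, with the crossed H1299 arrays included. The median over members was -0.08, and it was 0.05 without the H1299 pair at 0 h (17 of 21 members higher in p53-null cells) and -0.37 without the H1299 pair at 24 h (0 of 21 higher). In HCT116 alone 0 passed (0.0131% of genes called in each direction), and 20 of 21 members were lower in p53-null cells. The median was -0.13, with 5 members at an unadjusted p under 0.05. The share of all tested genes with the same direction is not given for these p53 comparisons. A lean of the members therefore cannot be told apart here from a lean of whole arrays. The interaction of p53 with 24 h hypoxia gave 0 members as well (0.0% of genes called in either direction), with 1 at an unadjusted p under 0.05. DNAJC3 (2.16), CRELD2 (2.04) and HERPUD1 (2.03) had the largest estimates, again with the crossed H1299 arrays, and no interaction was fitted without them. In HCT116 the 24 h changes of DNAJC3 were 2.71-fold in p53-null and 2.15-fold in p53 wild-type cells.

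In RCC4, 18 h of hypoxia asks how the response depends on VHL, which recognises hydroxylated HIF subunits for a ubiquitin ligase. In VHL-restored cells HERPUD1, XBP1, MANF and HSPA5 were higher at 18 h and SEC62 was lower, and these calls were made only with the replicate number in the model. HERPUD1 had 610 and 1435 at 18 h (replicates 1 and 2, which are also sets 1 and 2) and 355 and 666 at 0 h. XBP1 had 443 and 888 at 18 h against 302 and 593 at 0 h. MANF had 497 and 1162 against 422 and 640. HSPA5 had 541 and 1331 against 405 and 865. Within each set the 18 h array was higher for all 4 genes. The intensities of the groups overlapped for each, but after centring, the scale of the test, HSPA5 alone among the 4 overlapped (1.80 and 2.57 at 18 h against 1.36 and 1.90 at 0 h, log2 from the array median). SEC62, an accessory subunit of the SEC61 channel, went the other way, with 161 and 345 at 18 h and 248 and 432 at 0 h.

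Without the replicate number in the model, 0 of 21 members passed in VHL-restored cells, where 0.0394% of genes were called higher and 0.0% lower, with adjusted p of 0.9999 for HERPUD1 and 2 members at an unadjusted p under 0.05. With the replicate number as a block, 5 passed (3.7% of genes higher, 2.88% lower). HERPUD1 rose 1.96-fold (log2 difference 0.97, SE 0.106, adjusted p = 1.9e-05), XBP1 1.51-fold (0.60, SE 0.115, adjusted p = 0.0038), MANF by 0.58 on the log2 scale (SE 0.129, adjusted p = 0.00938) and HSPA5 1.47-fold (0.56, SE 0.11, adjusted p = 0.00463), and SEC62 fell by 0.40 on the log2 scale (SE 0.101, adjusted p = 0.0239). The median of the 21 members was 0.10 and that of all tested genes 0.05. CRELD2, the leading gene in HCT116, differed by -0.47 in set 1 and 0.66 in set 2, and DNAJC3 by 0.00 and 0.82, so these changes did not repeat between the sets.

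In VHL-null cells, 0 members passed with or without the block (0.0% of genes called in either direction without it, and 0.276% higher and 0.21% lower with it). HERPUD1 differed most, with 361 and 893 at 18 h and 261 and 661 at 0 h, a log2 difference of 0.47 (adjusted p = 0.0683 with the block). SEC62 differed by -0.28 and SSR1, a subunit of the translocon-associated complex, by -0.21. HSPA5 had 278 and 865 at 18 h and 310 and 849 at 0 h, and XBP1 had 211 and 627 against 229 and 606, both without a shared direction. With no block 0 members, and with the block 2, had an unadjusted p under 0.05. Without the VHL-null 0 h array of replicate 2, and with no block, 0 passed and the median over members was 0.09, against 0.00 with it. The difference between the genotypes' responses was tested as an interaction, and 0 members passed, with or without the block. Of all tested genes 0.0% were called without it, and 0.0657% higher and 0.499% lower with it. With the block the adjusted p was 0.208 for MANF, 0.183 for XBP1 and 0.169 for HSPA5 (log2 differences -0.64, -0.59 and -0.58). Without and with it, 0 and 5 members had an unadjusted p under 0.05. So a rise called in VHL-restored and not in VHL-null cells is not shown to differ between them.

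Set against each other at 18 h, VHL-null cells had lower levels of HSPA5, XBP1, HERPUD1 and 5 other members than VHL-restored cells in the fit with the block. With it 8 members were lower (3.97% of genes called lower, 3.62% higher), and without it 0 were (0.0% lower, 0.0263% higher, and 3 members at an unadjusted p under 0.05). HSPA5 had 278 and 865 in VHL-null cells and 541 and 1331 in VHL-restored cells, a log2 difference of -0.83 (SE 0.11, adjusted p = 0.000128 with the block). XBP1 had 211 and 627 against 443 and 888 (-0.82, adjusted p = 0.000225), and HERPUD1 361 and 893 against 610 and 1435 (-0.77, adjusted p = 0.000195). Each was lower in VHL-null cells in both sets. The others were DNAJC10 (-0.87, adjusted p = 0.000262), DNAJC3 (-0.53, 0.0389), SDF2L1 (-0.51, 0.0413), SERP1 (-0.40, 0.0171) and SEC62 (-0.38, 0.0269). SDF2L1 differed by -0.18 in set 1 and -0.83 in set 2, and without the VHL-restored 18 h array of replicate 2 its sign turned, to 0.16, in the fit without the block. Of the 21 tested members, 19 in set 1 and 20 in set 2 were lower in VHL-null cells, where 58.1% and 66.5% of all tested genes were.

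At 0 h the genotypes differed in fewer members. DNAJC10 had 85 and 255 in VHL-null cells and 230 and 393 in VHL-restored cells, about as far apart as at 18 h, where it had 73 and 208 against 141 and 371. With the block it was 0.501-fold the VHL-restored level (SE 0.124 on the log2 scale, adjusted p = 6.08e-05), as were SEC62 (-0.50, adjusted p = 0.00456) and SERP1 (-0.38, adjusted p = 0.0222), 3 members in all where 4.41% of genes were called lower and 3.1% higher. Without the block 0 members passed (0.0131% lower, 0.105% higher, and 1 member at an unadjusted p under 0.05). Leaving out the VHL-null 0 h array of replicate 2 in the fit without the block moved the median over members to -0.32, against -0.18 with it, with 0 calls either way, and the fit with the block was not run without it. HSPA5 had 310 and 849 in VHL-null cells against 405 and 865 in VHL-restored cells at 0 h and was not called in either fit.

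**Figure D4:**
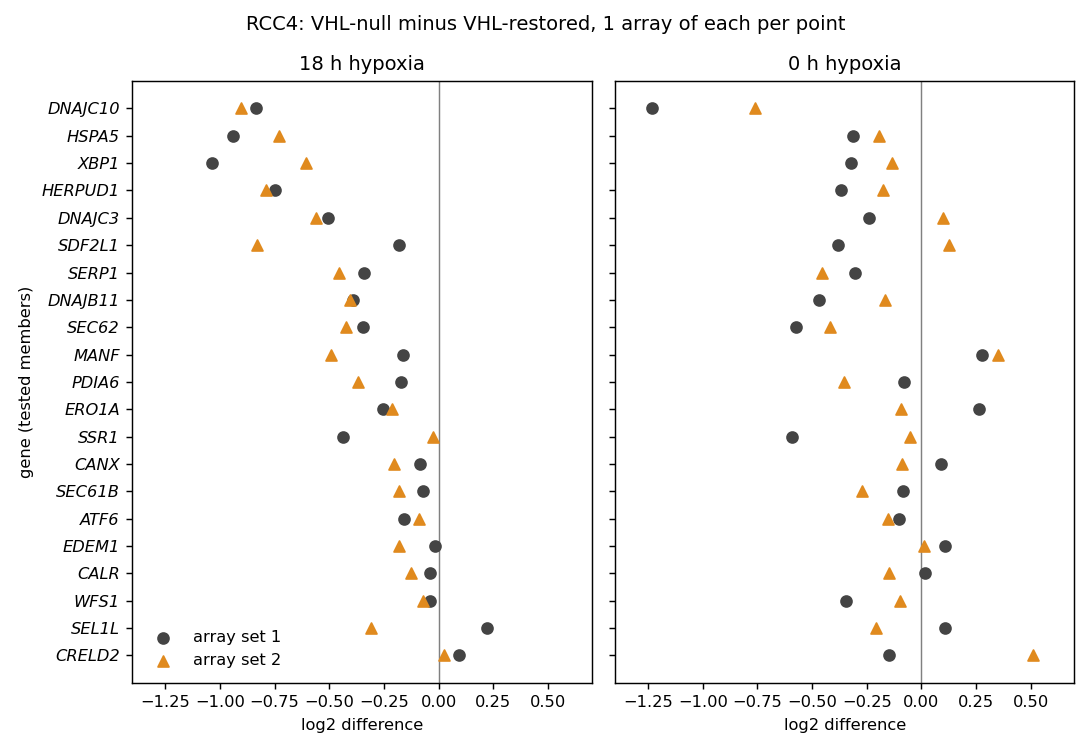
Log2 difference of each tested gene in RCC4, VHL-null minus VHL-restored, at 18 h (left) and 0 h (right) of hypoxia, with 1 point per array set and 1 array of each genotype per point. DNAJC10 lies between -0.76 and -1.23 in all 4 comparisons, and HSPA5 between -0.73 and -0.94 at 18 h and between -0.19 and -0.32 at 0 h.

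The time course in RCC4 asks when the change comes and whether it ends with reoxygenation. It was fitted over all 20 arrays with genotype and array set as terms, which tests a change that both genotypes share. Of the 7 tested chaperones, 6 were called at 4 h, on arrays that belong to set 2, and DNAJC10 was not. SDF2L1 had 218, 274, 543 and 188 at 0, 1, 4 and 18 h in VHL-null cells of that set, and 175, 390, 518 and 319 in VHL-restored cells. HSPA5 had 849, 1200, 1470 and 865 in VHL-null cells, and 865, 1483, 1562 and 1331 in VHL-restored cells. XBP1 had 606, 738, 948 and 627 in VHL-null cells, and 593, 998, 1091 and 888 in VHL-restored cells. For all 3 genes both genotypes were highest at 4 h and lower again at 18 h.

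**Figure D5:**
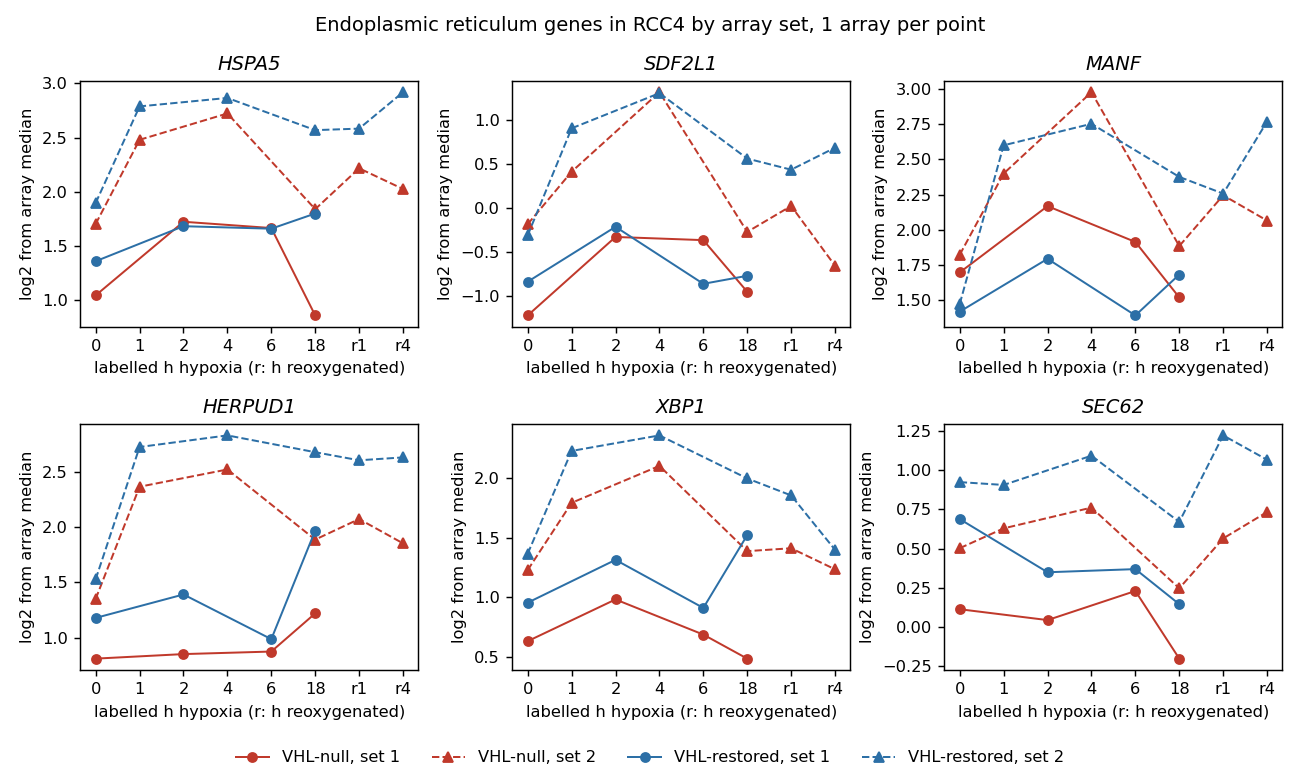
Level of 6 ER genes in RCC4 as log2 from the array median, by labelled hours of hypoxia and of reoxygenation (r1, r4) after 18 h, with circles and solid lines for array set 1 and triangles and dashed lines for set 2, 1 array per point. In set 2 HSPA5, SDF2L1, HERPUD1 and XBP1 were highest at 4 h among the hypoxic arrays of both genotypes, and SEC62 was lowest at 18 h.

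At 4 h, 11 of 21 members were called higher (7.18% of all tested genes were) and 0 lower (3.45%). They were 6 chaperones, SDF2L1 (2.82-fold, adjusted p = 0.00249), MANF (2.16-fold, 0.00551), DNAJC3 (1.96-fold, 0.00853), HSPA5 (1.90-fold, 0.0066), CRELD2 (1.75-fold, 0.0198) and DNAJB11 (1.49-fold, 0.0197), with PDIA6 (1.39-fold, 0.0163), HERPUD1 (2.26-fold, 0.000192), SERP1 (1.29-fold, 0.0365), XBP1 (1.85-fold, 0.00176) and WFS1 (1.29-fold, 0.00907). At 1 h HERPUD1 (2.06-fold, adjusted p = 0.00108), XBP1 (1.59-fold, 0.0237) and HSPA5 (1.70-fold, 0.04) were called, 3 members where 2.43% of genes were higher and 1.18% lower. On the VHL-restored 1 h array BNIP3 (516) and ENO2 (1293) were as high as at 18 h in set 2 (511 and 1200). On the VHL-null 1 h array they were 443 and 989, against 523 and 1112 at 18 h and 506 and 942 at 0 h in set 2. Whether the 1 h label is right was not tested. The 1 h and 4 h arrays lie in set 2 alone, whose 0 h and 18 h arrays are the only others of that set that are not reoxygenated. Without the VHL-restored 0 h array of replicate 2, 6 members passed at 4 h and 1 at 1 h, and without the VHL-restored 18 h array of replicate 2, 5 passed at 1 h.

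At 2 h and 6 h, both in set 1, 0 members passed (0.0% of genes called higher at either time, 0.144% lower at 2 h and 0.0% at 6 h), with 6 and 2 members at an unadjusted p under 0.05 in limma. HSPA5 had 310, 506 and 498 at 0, 2 and 6 h in VHL-null cells of that set, and 405, 501 and 488 in VHL-restored cells. SDF2L1 had 52, 110 and 110 in VHL-null cells, and 76, 123 and 72 in VHL-restored cells. These were higher than at 0 h in VHL-null cells at both times, and the adjusted p was 0.453 for HSPA5 and 0.438 for SDF2L1 at 2 h. MANF, with 496, 694 and 594 in VHL-null and 422, 542 and 402 in VHL-restored cells, differed by 0.53 on the log2 scale at 2 h.

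At 18 h the shared fit called HERPUD1 higher (1.65-fold, adjusted p = 0.00311) and SEC62 lower, by -0.34 on the log2 scale (adjusted p = 0.0236), where 1.77% of genes were higher and 1.18% lower. Leaving out the arrays labelled 1 h and 4 h kept both calls (adjusted p = 0.0061 and 0.0379). Without the array set as a term 0 members passed (0.118% of genes called higher, 0.0525% lower). Leaving out any 1 of 5 arrays (either VHL-restored array at 0 h or at 18 h, or the VHL-null 18 h array of replicate 2) left 1 call.

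Reoxygenation was measured in set 2 alone. After 1 h, 0 members differed from 18 h (0.0% of genes called, and 3 members at an unadjusted p under 0.05), with SEC62 (0.48), DNAJC3 (0.35) and DNAJC10 (0.30) farthest apart. After 4 h SEC62 had 347 in VHL-null and 377 in VHL-restored cells, against 276 and 345 at 18 h in the same set, and was called higher (1.40-fold, adjusted p = 0.018). DNAJC10 had 264 and 407 against 208 and 371 (1.44-fold, adjusted p = 0.0336). These were the 2 members called, where 0.946% of genes were higher and 1.68% lower, and XBP1 had 498 and 479 against 627 and 888, a log2 difference of -0.33 that did not pass (adjusted p = 0.27). Leaving out the VHL-null 18 h array of replicate 2 gave 0 calls, and leaving out the VHL-null or VHL-restored 18 h array of replicate 1 or the VHL-null 0 h array of replicate 2 gave 1.

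Against untreated cells, 4 members were higher after 4 h of reoxygenation (6.99% of genes higher, 3.97% lower). HERPUD1 had 773 and 1147, against 661 and 666 at 0 h in the same set (1.67-fold, adjusted p = 0.00586), and EDEM1 had 461 and 519 against 442 and 388 (1.40-fold, adjusted p = 0.00921). PDIA6 had 1036 and 1374 against 1005 and 1148 (1.36-fold, adjusted p = 0.0258). DNAJC3 had 474 and 712 against 435 and 359 (1.61-fold, adjusted p = 0.0464). Of these, HERPUD1 was also called at 18 h, where EDEM1 (0.14 on the log2 scale), PDIA6 (0.21) and DNAJC3 (0.18) were not. All 4 were farther from 0 h in VHL-restored than in VHL-null cells, and that difference was not tested. Without the arrays labelled 1 h and 4 h, DNAJC3 had an adjusted p of 0.0623 and the other 3 passed. Without the VHL-null 0 h array of replicate 2, 2 members passed, and without the VHL-restored one, 1 did. XBP1 after 4 h differed from 0 h by -0.03 on the log2 scale.

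Between the lines at 0 h, on set 1 arrays of both genotypes, RCC4 had lower levels than HCT116 of SDF2L1 (52 and 76 against 152 and 141, log2 difference -1.20, adjusted p = 0.0298), SEL1L (169 and 162 against 277 and 304, -0.92, adjusted p = 0.00286), SEC61B (529 and 583 against 707 and 727, -0.52, adjusted p = 0.0063) and ATF6 (183 and 206 against 408 and 433, -1.21, adjusted p = 0.000645). SEC62 was higher in RCC4 (155 and 248 against 64 and 63, 1.26, adjusted p = 0.00781). These were 4 members lower and 1 higher, where 21.6% of genes were called lower and 14.3% higher. With the mean over each gene's probe sets the ATF6 and SEC62 differences turned, to 0.19 and -0.01, so their direction rests on the probe set. Against H1299, RCC4 was lower in the same direction for SDF2L1 (-1.50, adjusted p = 0.0163), SEL1L (-0.89, 0.00342), SEC61B (-0.49, 0.00879) and ATF6 (-1.20, 0.0008, and 0.14 with the mean over probe sets), 4 members where 18.9% of genes were lower, and 0 were higher where 12.6% of genes were.

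H1299 against HCT116 gave 0 members (3.57% of genes higher and 2.74% lower, and 2 members at an unadjusted p under 0.05). That comparison includes the H1299 array labelled p53 wild type at 0 h, on which the hypoxia genes were high. Without it 5 members were lower in H1299 than in HCT116 (2.4% of genes lower, 2.56% higher): HERPUD1 (91 against 329 and 311, log2 difference -1.68, adjusted p = 0.00645), HSPA5 (322 against 825 and 1054, -1.51, adjusted p = 0.0123), DNAJC3 (-1.41, 0.0231), XBP1 (-1.29, 0.0119) and CRELD2 (-0.75, 0.0412). The same omission gave 8 members between RCC4 and HCT116 (15.0% of genes higher, 21.1% lower), adding HSPA5 (-1.52), MANF (-0.75) and XBP1 (-0.75), all lower in RCC4. An H1299 array does not enter the RCC4 minus HCT116 differences, which stayed the same. Only the spread pooled over the lines, and so the p-values, changed. Between RCC4 and H1299 the omission gave 7 (10.1% higher, 12.5% lower), adding HERPUD1 (2.73-fold), DNAJC3 (2.14-fold) and CRELD2 (1.59-fold), all higher in RCC4. The lone H1299 array is then assumed to vary as the other lines do. With that array left out, HSPA5 at 0 h was higher in HCT116 than in RCC4 (310 and 405) and on the p53-null H1299 array (322), which overlapped; the array left out had 1190.

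The members too dim for the test are given as intensities. DNAJB9 (ERdj4), a co-chaperone that is a target of spliced XBP1, was null on 25 arrays, and all 5 arrays that listed it were hypoxic RCC4: 56 at 4 h in VHL-null cells, and 44, 133, 17 and 24 at 1 h, at 4 h and on the 2 arrays at 18 h in VHL-restored cells. EIF2AK3, the sensor kinase PERK, was null on 11 arrays. In VHL-restored RCC4 of set 2 it had 61, 146, 152 and 110 at 0, 1, 4 and 18 h, and 84 and 4 after 1 h and 4 h of reoxygenation. DERL2, a channel component of ER-associated degradation, had 226 and 232 on the 4 h arrays of VHL-null and VHL-restored cells, against 142 and 146 at 0 h in that set, and its mean level was the one just below the limit (-0.99 against the array median, where WFS1 at 0.01 was the dimmest member tested and the limit lay at -0.67). SDF2 was between 6 and 149, and PDIA3 and DERL1 were null on 25 and 23 arrays, too few for a pattern. ERO1B, the second ER oxidase, was null on all 30.

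Other genes of the ER were followed through 5 lists. In HCT116 at 24 h, where 2.02% of all tested genes were called higher and 1.79% lower, 6 of 20 tested genes of translocation, signal peptidase and glycosylation were higher, led by SEC11C, a signal peptidase subunit (log2 difference 1.00, adjusted p = 0.0135), TRAM1, a translocon partner (0.77), and MOGS, a glucosidase (0.56), with 0 lower. Of other folding proteins 3 of 11 were higher (PDIA5 0.73, CALU 0.68 and SELENOS 0.43), of ER to Golgi transport 3 of 16 (TMED10 1.11, KDELR3 0.77 and SEC13 0.76), and of degradation and regulation 2 of 14 (UFD1 0.58 and OS9 0.42), with 0 lower in these lists. The ATF4 arm, which PERK feeds, did not move one way: 2 of 14 were higher, such as STC2 (0.77, adjusted p = 0.0188), and 2 lower, PSAT1, a serine synthesis enzyme (-1.01, adjusted p = 0.0296), and TRIB3, a pseudokinase (-0.73, adjusted p = 0.0423). The medians of these lists ran from -0.10 for the ATF4 arm to 0.30 for ER to Golgi transport, against 0.53 for the 21 members.

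In RCC4 at 18 h, in VHL-restored cells and with the block, 7 of 14 tested ATF4 genes were higher (3.7% of all tested genes were), led by TRIB3 (log2 difference 1.83), STC2 (1.64) and DDIT4 (1.31), against 0 of 20 translocation and glycosylation genes and 0 of 16 transport genes. In VHL-null cells, with the block, 3 of 14 ATF4 genes were higher (ATF3 1.42, TRIB3 0.55 and DDIT4 0.62), where 0.276% of all tested genes were. Without the block 1 ATF4 gene passed in VHL-restored cells, TRIB3 (adjusted p = 0.02), where 0.0394% of genes were called higher, and 0 passed in VHL-null cells. The medians of the ATF4 list were 0.46 in VHL-restored and 0.36 in VHL-null cells, beside 0.10 and 0.00 for the 21 members. With the block, the interaction was called for TRIB3 (-1.29, adjusted p = 0.000208) and STC2 (-1.03, 0.0323), a smaller rise in VHL-null cells, where 0.499% of genes were called lower. At 0 h 3 of 14 ATF4 genes were already higher in VHL-null cells, among them TRIB3 (1.51) and DDIT4 (0.89), and CEBPB was lower (3.1% of genes higher, 4.41% lower). Without the block TRIB3 alone passed at 0 h, and no interaction did. At 4 h, where 7.18% of all tested genes were called higher, 9 of 14 ATF4 genes were, with ATF3 at 2.44, as were 3 of 20 translocation and glycosylation genes (SEC61A1 0.55), 3 of 16 transport genes (SEC23B 0.72) and 3 of 14 degradation genes (OS9 0.46). After 4 h of reoxygenation SESN2 (-1.05), CEBPB (-0.92) and DDIT4 (-1.05) of the ATF4 list were lower than at 18 h, 3 of 14 with 0 higher, where 1.68% of all tested genes were lower.

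The promoter elements shown above were set beside these calls as a description. Of the 9 tested genes with ERSE or ERSE-II (HSPA5, SDF2L1, CRELD2, PDIA6, CALR, CANX, HERPUD1, SERP1 and XBP1), 5 were called higher in HCT116 at 24 h, and of the 12 without, 4 were (DNAJB11, DNAJC3, MANF and ERO1A). Of the 10 tested genes with the core ACGTG 5 were called, and of the 11 without it 4 were. XBP1 and HSPA5, which carry the element close to the start, were not called in HCT116 and were called in RCC4 at 4 h, while CALR, with the element farther out, was called in HCT116 (1.51-fold at 24 h) and was 906 and 937 at 4 h against 904 and 892 at 0 h in set 2 of RCC4. Among these 9 genes, called ones held the element both near the start and farther from it. CRELD2 (80 bases) and PDIA6 (86), also close, and SERP1 (232), farther out, were called in both HCT116 at 24 h and RCC4 at 4 h. CANX, 9 bases from its nearest start, was called in neither. The elements were thus found in genes that were called and in genes that were not.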

How the data were processed

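The authors deposited linear intensity values per probe set, in whole numbers with null entries, for 30 arrays hybridised by the GeneChip protocol, per the labels. How they were scaled and what a null entry means is not given in the sources used here, and the precision is limited by the number of arrays. Here null was taken as 0, values as log2(intensity + 16), and each array was centred on its median over 12690 genes, since array medians spanned 0.903. The brightest single-symbol probe set stood for a gene, out of 35356 probe sets, and the upper 60% of genes by mean, 7614, were tested two-sided with limma 3.58.1 (R 4.3.3) and called at a Benjamini-Hochberg adjusted p of 0.05. Every group is labelled by title, and each fit is described with its result. Replicate differences correlated between RCC4 groups (0.794 to 0.916 over 6 pairs of groups, across genes), and the repeated RCC4 groups have replicate 1 in one array set and replicate 2 in the other, so blocked fits stand beside unblocked ones. The members, lists and named genes (those passing in either fit, otherwise the 3 with the largest change) were chosen with earlier results of these data known. Only the fit of the RCC4 arrays at 0 h and 18 h was tried on simulated data, with and without the block. That trial covered 18 h hypoxia in VHL-restored cells, and the other fits were not simulated. Alternatives were another pseudocount, no filter on dim genes, quantile normalization, null entries as missing, the mean over probe sets, blocks, and leaving out arrays. Promoter sequences are RefSeq's, GRCh38.p14.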

Additional observations from a re-analysis of the deposited data

Results flagged for a closer look

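In H1299, 20 of the 21 tested ER genes were higher at 24 h than at 0 h on the arrays labelled p53-null and lower at 24 h on the arrays labelled p53 wild type, whereas 33.5% of all tested genes showed that pair of directions. The value stands out because the same contrast runs opposite ways in the 2 genotypes, with 1 array per state, and the difference was not tested. The hypoxia genes ADM (215 at 24 h against 120 at 0 h, then 132 against 207), PDK1 (192 against 75, then 66 against 267) and NDRG1 (314 against 146, then 169 against 304) cross in the same way. Their part in the result was not tested.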

How the results depend on the processing

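Values here are numbers of members called. Shares of all genes called are given above for the replicate block and the left-out H1299 array, and below for the array set. Where no share is given, a changed count cannot be told apart from a change in calls over all genes. Adding the replicate number as a block (replicate block) gave 5 members instead of 0 for 18 h in VHL-restored RCC4, 3 instead of 0 for VHL at 0 h and 8 instead of 0 for VHL at 18 h, and changed no other count. Without the array set as a block, 1 instead of 3 passed at 1 h, 0 instead of 2 at 18 h, 0 instead of 2 for 4 h of reoxygenation against 18 h and 2 instead of 4 against 0 h. In that fit 0.998%, 0.118%, 0.131% and 1.64% of all genes were called higher in the same order, and 0.368%, 0.0525%, 0.67% and 1.67% lower. With the array set these were 2.43%, 1.77%, 0.946% and 6.99% higher and 1.18%, 1.18%, 1.68% and 3.97% lower. With no filter on dim genes, the numbers were 0 instead of 6 and 9 at 12 h and 24 h in HCT116, 1 at 18 h in the course, 7 for reoxygenation against 18 h and 7 against 0 h. Quantile normalization gave 1 at 1 h, 1 for reoxygenation against 18 h and 2 against 0 h. The mean over probe sets gave 8 at 1 h, 1 at 18 h, 14 for reoxygenation against 0 h and 3 between RCC4 and HCT116, where SEC62 (-0.011) and ATF6 (0.19) turned in sign, as ATF6 did against H1299 (0.14). A pseudocount of 64 gave 10 instead of 6 at 12 h in HCT116. Leaving out 1 array at a time gave 1 to 5 at 1 h, 6 to 13 at 4 h, 1 to 2 at 18 h, 0 to 2 and 1 to 6 for 4 h of reoxygenation against 18 h and 0 h, and 0 to 1 for 24 h hypoxia over both p53 lines. For VHL at 18 h the SDF2L1 difference, called only with the block, ran from -1.17 to 0.159 when 1 array was left out of the fit without the block, which then compares unequal array sets, against -0.18 and -0.83 within the sets, and it was positive without the VHL-restored 18 h array of replicate 2. Chosen after seeing the data, leaving out the H1299 array labelled p53 wild type at 0 h gave 8, 7 and 5 members for the 3 pairs of lines in place of 5, 4 and 0, and the omission of the arrays labelled 1 h and 4 h changed 1 call, that of DNAJC3. Leaving out the H1299 array kept the RCC4 minus HCT116 differences as they were and altered only the pooled spread of that test. The cause of the other changes was not tested. Of 257 counts under all alternatives, 219 stayed within 1.5 times the reported one, and of 710 values of named genes 621 kept direction and call and 4 turned in sign. In HCT116 leaving out a genotype leaves no residual degrees of freedom, so it was not run. Arrays without replicates, unknown scaling and genes near background limit what can be called.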
